A study of Mus musculus with 4 samples.

Results

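The genes described here are 10 neuropeptide precursors of cortical neurons, Npy, Sst, Cort, Vip, Crh, Tac1, Penk, Pdyn, Cck and Adcyap1, out of 18194 genes measured. They were taken by name, and every probe set that names 1 of them alone was used, which gave 12 probe sets, with 1 for each of 8 genes and 2 each for Tac1 and Adcyap1. The study asked how loss of P4H-TM, an oxygen-dependent prolyl 4-hydroxylase of the endoplasmic reticulum membrane, changes gene expression after an ischemic stroke. RNA came from whole cortex of 3-month-old C57BL/6J wild-type (WT) mice and of P4htm-/- mice, a constitutive knockout line backcrossed to C57BL/6, 24 h after permanent occlusion of the left middle cerebral artery (pMCAO). The ipsilateral, injured cortex and the contralateral, uninjured cortex of the same operated animals were the samples, so no array holds sham-operated or unoperated cortex. The RNA of 4 mice was pooled for each of the 4 conditions and hybridized to 1 Affymetrix whole-genome mouse expression array per condition. With 1 array per condition there is no replicate error, no test was possible, and the spread between mice is not known. The sex of these mice is not given in the sources used here.

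P4htm, the targeted gene, read 10.03 on the WT contralateral array, 10.02 on the WT ipsilateral array, 8.27 on the P4htm-/- contralateral array and 8.23 on the P4htm-/- ipsilateral array, on the log2 scale. Both P4htm-/- arrays lay below both WT arrays. It was not determined whether the probes match the deleted exons. All values below are log2 values per probe set made by the authors with RMA, a method that subtracts background, equalizes the distributions of the arrays and combines the probes of each set. A level therefore compares conditions for 1 probe set, and levels of different genes are not set against each other. Background was taken as 4.78. This is the 95th percentile of the values of 83 probe sets for chemosensory receptors (olfactory, vomeronasal and bitter taste). A gene is called higher or lower where its difference passed 1.5-fold, 0.585 on the log2 scale, with at least 1 of the compared arrays above background. The standard deviation of the receptor probe sets' differences, 0.18 to 0.21 for the 4 comparisons, is a guide to technical scatter at the low end of the scale only.

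Neuropeptides are made as precursor proteins that are cut by convertases, packed into dense-core vesicles and released on sustained firing to act on G protein-coupled receptors. In the cortex most of them mark classes of GABAergic interneurons. Sst marks cells that inhibit dendrites, often together with Npy or Cort, while Vip marks cells that inhibit other interneurons and often contain Crh. Cck is made by a class of basket cells and also by pyramidal neurons, Penk and Pdyn encode opioid peptides that are also abundant in the striatum, and Adcyap1 encodes PACAP, a peptide of excitatory neurons. Transcription of several precursor genes, Sst and Vip among them, is known to respond to cAMP and calcium through the factor CREB, which binds the cAMP response element.

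That element was looked for in the RefSeq promoter windows of the peptide genes, which run from 250 bases before to 50 bases after the transcription start in the mouse build GRCm38.p6. A window was given for 8 of the 10 genes, with 2 windows each for Pdyn and Adcyap1. Penk and Crh have no entry. The full element TGACGTCA was present in Sst only, and in 588 of 32851 windows of all genes, which is 1.8%. Its shorter core TGACG, read on either strand and also contained in the full element, was present in Adcyap1, Cck, Cort, Sst, Tac1 and Vip, thus in 6 of 8 genes, against 20.8% of all windows. It was not found in the windows of Npy and Pdyn. The count of 6 is of genes, 2 of the 8 having 2 windows, while the 20.8% is of windows, so they are not on a like basis. Windows of 3 genes are printed, 5′ to 3′ on the gene's strand, with the full element in Sst and the shorter core in Vip and Cort, because these genes differ in the size of their side differences below. Capitals mark TGACG or, for the other strand, CGTCA. The window of Sst is chr16:23890795-23891094 on the minus strand, that of Vip chr10:5638968-5639267 on the plus strand and that of Cort chr4:149126714-149127013 on the minus strand.
Sst: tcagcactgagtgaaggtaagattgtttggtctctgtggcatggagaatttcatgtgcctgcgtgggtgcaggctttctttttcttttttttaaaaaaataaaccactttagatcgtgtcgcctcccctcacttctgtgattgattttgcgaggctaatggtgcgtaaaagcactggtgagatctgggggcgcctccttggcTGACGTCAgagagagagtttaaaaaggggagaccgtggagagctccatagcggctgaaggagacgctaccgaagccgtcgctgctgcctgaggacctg
Vip: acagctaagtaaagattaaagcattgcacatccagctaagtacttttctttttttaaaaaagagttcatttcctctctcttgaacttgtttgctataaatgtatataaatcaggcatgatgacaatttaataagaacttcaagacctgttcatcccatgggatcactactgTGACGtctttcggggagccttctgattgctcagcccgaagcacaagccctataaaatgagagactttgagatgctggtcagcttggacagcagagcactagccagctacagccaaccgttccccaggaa
Cort: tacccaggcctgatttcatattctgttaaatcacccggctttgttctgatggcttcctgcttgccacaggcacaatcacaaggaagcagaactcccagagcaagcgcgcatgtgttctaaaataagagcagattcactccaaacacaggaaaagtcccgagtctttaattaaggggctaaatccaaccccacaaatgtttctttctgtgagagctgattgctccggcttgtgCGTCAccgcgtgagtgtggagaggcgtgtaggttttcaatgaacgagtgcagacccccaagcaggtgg
The first capital lies at -48 from the start in Sst, at -79 in Vip and at -18 in Cort. These matches describe the letters and are not evidence of binding in this tissue.

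All 10 peptide genes were above background on all 4 arrays, and none of them was called higher or lower in any comparison. The range of a gene over the 4 conditions ran from 0.10 to 0.34 on the log2 scale. Vip, Crh, Cort and Sst had smaller values in the ipsilateral than in the contralateral cortex of both genotypes, all within 1.5-fold. The differences ran from -0.11 to -0.34 for Vip, Crh and Cort and were -0.10 and -0.01 for Sst. Npy and Adcyap1, the latter with its brighter probe set, had greater ipsilateral values in both genotypes, by 0.06 and 0.09 and by 0.01 and 0.25. For these 6 genes the values of the sides did not overlap, and for Tac1, Penk, Pdyn and Cck they did. For Sst, Cort, Npy and Adcyap1 the gap between the sides was only 0.01, the last decimal place of the deposited values. Of all 13448 genes above background 23.4% had both ipsilateral values below both contralateral ones, as did 4 of the 10 peptide genes, and 16.3% had them above, as did 2 of the 10, so these counts do not set the peptide genes apart. In WT mice the differences of Vip, Crh and Cort depend on the scale: relative to the median of neuron markers, which was itself below 0 as given further on, they were -0.075, -0.035 and 0.085. In P4htm-/- mice they were then -0.255, -0.325 and -0.215. The result depends on the marker list: the neuron median subtracted in WT mice was -0.195, while that of interneuron markers was -0.07.

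Sst encodes somatostatin, which inhibits firing and hormone release. It read 11.73 in the WT contralateral, 11.63 in the WT ipsilateral, 11.72 in the P4htm-/- contralateral and 11.71 in the P4htm-/- ipsilateral cortex (probe set 1417954, numbers being given here without their suffix). All values lay within 0.10 of each other, and 3 of them within 0.02. Npy, the precursor of neuropeptide Y, an inhibitory and vasoconstrictor peptide, read 11.03, 11.09, 11.08 and 11.17 in the same order (1419127). Its ipsilateral value was above the contralateral one by 0.06 in WT and by 0.09 in P4htm-/- mice. Cort encodes cortistatin, a relative of somatostatin that binds the same receptors. It read 7.32, 7.21, 7.54 and 7.31 (1449820), with the P4htm-/- contralateral value above the other 3, which lay within 0.11 of each other.

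Vip encodes vasoactive intestinal peptide, a vasodilator and the marker of disinhibitory interneurons. It read 10.61 in the WT contralateral and 10.34 in the WT ipsilateral cortex, and 10.65 and 10.38 in the P4htm-/- contralateral and ipsilateral cortex (1428664). Both ipsilateral values lay below both contralateral values, and on each side the genotypes were 0.04 apart. Crh encodes corticotropin-releasing hormone, a stress peptide that in the cortex is made largely by interneurons. It read 8.48 and 8.25 in WT and 8.56 and 8.22 in P4htm-/- mice on the contralateral and ipsilateral side (1457984). Here too the sides did not overlap, while the genotypes were 0.08 apart on the contralateral and 0.03 apart on the ipsilateral side.

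Tac1, which encodes substance P and neurokinin A, read 10.84, 10.94, 10.92 and 10.91 in contralateral and ipsilateral WT cortex and then contralateral and ipsilateral P4htm-/- cortex (1416783). Its other probe set, 1431883, was not above background on any array. Penk, the precursor of the enkephalins, read 12.07, 11.96, 11.89 and 12.03 in that order (1427038). In WT mice the contralateral value was the greater one, in P4htm-/- mice the ipsilateral one. Pdyn, the precursor of the dynorphins, read 7.65, 7.56, 7.50 and 7.56 (1416266), with equal values in the ipsilateral cortex of both genotypes.

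Cck encodes cholecystokinin and is expressed by basket cells and pyramidal neurons. It read 12.20, 12.20, 12.09 and 12.13 (1419473), so that both WT arrays gave the same value and both P4htm-/- arrays lay 0.07 to 0.11 below it. Adcyap1, the PACAP precursor, read 7.79, 7.80, 7.77 and 8.02 with its brighter probe set (1423427), where the P4htm-/- ipsilateral value stood above 3 nearly equal ones. The other probe set of the gene, 1441778, read 5.44, 5.65, 5.57 and 5.54 and gave another order, with the WT ipsilateral value as the greatest. The 2 probe sets disagree, and no direction is given for Adcyap1.

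**Figure D1:**
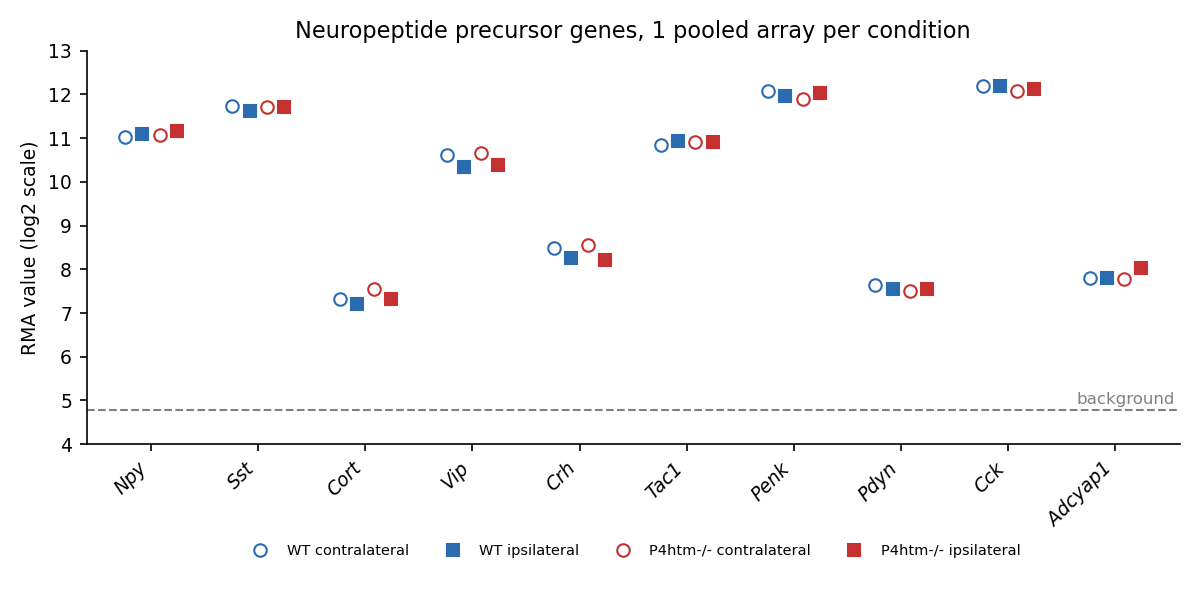
Levels of the 10 peptide genes as RMA values on the log2 scale, with 1 point per array, circles for contralateral and squares for ipsilateral cortex, blue for WT and red for P4htm-/- mice. All points lie above the dashed background line at 4.78. The sides do not overlap for Vip, Crh, Cort and Sst, with smaller ipsilateral values, and for Npy and Adcyap1, with greater ones. For Cort, Sst, Npy and Adcyap1 they are apart by only the last decimal place of the values. Adcyap1 is drawn with its brighter probe set, and in the other one the sides overlap. The points of a gene span at most 0.34, and there are no error bars because each condition is 1 array.

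In WT mice 0 of 10 peptide genes were higher and 0 were lower in the ipsilateral than in the contralateral cortex. Among all 13320 genes above background in this comparison 322 were higher, which is 2.42%, and 59 were lower, which is 0.443%. With background shares this small a count of 0 of 10 does not set the peptide genes apart. Their median difference was -0.095 with 6 values below 0 and 3 above it, against a median of -0.02 over all genes, of which 52.9% were below 0. The most negative differences were those of Vip at -0.27, a ratio of 0.829, and of Crh at -0.23, a ratio of 0.853. They lay at percentiles 8.3 and 11.8 of all genes, inside the band from -0.33 to 0.43 that holds the genes between the 5th and the 95th percentile.

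In P4htm-/- mice 0 of 10 peptide genes were higher and 0 lower on the ipsilateral side, with 204 of all 13309 genes higher, which is 1.53%, and 22 lower, which is 0.165%. The median of the peptide genes was 0.015, with 5 values above 0 and 5 below it, against -0.02 over all genes. Vip again differed by -0.27, at percentile 4.0, and Crh by -0.34, a ratio of 0.79, at percentile 2.0. Both lay outside the central band of all genes, which ran from -0.25 to 0.28. Cort differed by -0.23, at percentile 6.2, and by -0.11 in WT mice. At the other end Adcyap1, with its brighter probe set, differed by 0.25 and Penk by 0.14, at percentiles 93.6 and 86.5. The other probe set of Adcyap1 differed by -0.03. Ranked only among genes whose mean level was within 0.5 of their own, a ranking chosen after the values were seen, the P4htm-/- side differences of Vip and Crh stood at percentile 0.7 of 1333 genes and at percentile 0.8 of 2502 genes, and those of WT mice at 6.2 and 12.5.

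In the uninjured, contralateral cortex 0 of 10 peptide genes differed between the genotypes past 1.5-fold in either direction. Over all 13207 genes 30 were higher in P4htm-/- mice, which is 0.227%, and 21 were lower, which is 0.159%. The differences of the peptide genes ran from -0.18 to 0.22 with a median of 0.015, against -0.01 over all genes. Those of Penk, Pdyn and Cck were -0.18, -0.15 and -0.11, at percentiles 8.8, 12.2 and 19.2, and that of Cort was 0.22 at percentile 93.8. Among genes of similar level, the ranking chosen after the values were seen, Penk stood at percentile 0.9 of 463 genes.

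In the ipsilateral cortex 0 of 10 peptide genes were higher and 0 lower in P4htm-/- than in WT mice, while 12 of all 13363 genes were higher, which is 0.0898%, and 77 were lower, which is 0.576%. The peptide genes differed by -0.07 to 0.22 with a median of 0.055, against -0.01 over all genes. Adcyap1 had the greatest difference, 0.22, with its brighter probe set, and -0.11 with the other one. Sst and Npy both differed by 0.08, Vip by 0.04 and Pdyn by 0.00. These comparisons share arrays with one another, so that a high or low value on 1 array enters 2 of them.

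**Figure D2:**
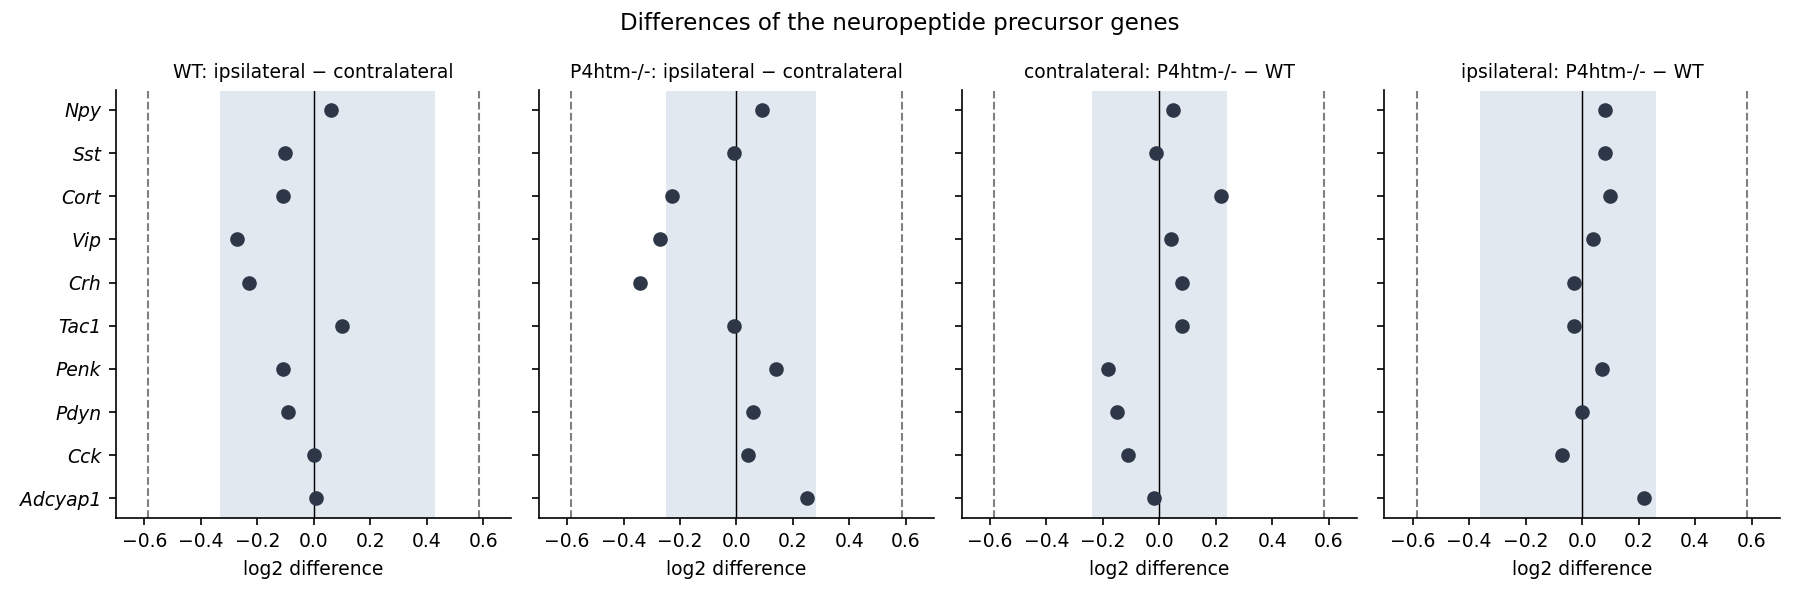
Log2 differences of the 10 peptide genes in the 4 comparisons, with 1 point per gene, the shaded band holding all genes between the 5th and the 95th percentile and dashed lines at 1.5-fold. No point passes the dashed lines. In P4htm-/- mice Vip and Crh lie outside the band, at -0.27 and -0.34, while in WT mice Vip has the same difference of -0.27 and lies inside a band that reaches to -0.33.

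The side difference in P4htm-/- mice minus that in WT mice says how far the side difference of a gene was unlike in the genotypes, as a value without a test. It was 0.00 for Vip, 0.03 for Npy, 0.04 for Cck and 0.09 for Sst. For Tac1 and Crh it was -0.11 and for Cort -0.12. The values of Penk, Adcyap1 and Pdyn were 0.25, 0.24 and 0.15. Over the receptor probe sets this quantity had a standard deviation of 0.29, and the central band of all genes ran from -0.42 to 0.32, so that all 10 peptide genes lay inside it. The dimmer probe set of Adcyap1 gave -0.24, the opposite sign of the brighter one.

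No peptide gene ranged over 1.5-fold, the limit for naming genes of like profile, so the following were named after their values were seen. Around its own mean, the profile of Vip over the 4 arrays was closest to those of Trhde, Meg3 and Prelp, at root mean square distances of 0.008, 0.011 and 0.011 on the log2 scale. Trhde encodes an enzyme that degrades the peptide TRH. The closest to Crh were Rhpn2, Abhd1 and Arhgap25, all at 0.019. Within 0.03 there were 45 of 13447 genes for Vip, 25 for Crh and 22 for Cort, and 717 for Sst, whose profile was nearly flat. With 4 arrays many genes share a profile, and likeness is given as a description.

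The receptors of these peptides, with the binding protein of CRH, formed a list of 22 genes, all measured and 15 or 16 of them above background depending on the comparison. Only Crhbp passed 1.5-fold, in WT mice alone. Crhbp encodes a secreted protein that binds and holds CRH. It read 8.85 in the WT contralateral, 9.48 in the WT ipsilateral, 9.05 in the P4htm-/- contralateral and 9.20 in the P4htm-/- ipsilateral cortex. The side difference was 0.63 in WT and 0.15 in P4htm-/- mice, both with the sign opposite to that of Crh, and whether they differ was not tested. The median of the list was -0.065 between the sides in WT mice and -0.045 in P4htm-/- mice, and -0.02 and 0.01 between the genotypes on the contralateral and ipsilateral side.

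The receptors with the highest means, Adcyap1r1 for PACAP, Cckbr for cholecystokinin, Sstr4 for somatostatin and cortistatin and Npy5r for neuropeptide Y, differed between the sides by -0.15 to 0.15. Cckbr read 9.75, 9.67, 9.51 and 9.66 and Sstr4 read 9.56, 9.46, 9.54 and 9.57 in the same order. Sstr4 separated neither the sides nor the genotypes, and for Cckbr the P4htm-/- values lay below the WT values by 0.24 on the contralateral and 0.01 on the ipsilateral side. Its other probe set, also above background on all arrays, gave 0.01 and 0.23 with the opposite sign, so no direction is given for Cckbr. The following 5 receptors were picked after their values were seen. Crhr1, the main CRH receptor of the cortex, read 7.86, 7.60, 7.97 and 7.68, so that both ipsilateral values lay below both contralateral ones, by 0.26 and 0.29, as for its ligand. Npy1r, a receptor for neuropeptide Y, read 7.91, 7.36, 7.57 and 7.46, with the WT contralateral value apart from the others. Tacr3, the neurokinin B receptor, read 7.14, 6.99, 6.76 and 6.63, and both P4htm-/- values lay below both WT values, by 0.38 and 0.36. Another probe set of Tacr3 above background gave differences of -0.38 and -0.08 between the genotypes. Vipr1, a receptor for VIP, read 7.23 to 7.28 on the 4 arrays, and the other VIP receptor gene, Vipr2, was not above background on any.

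**Figure D3:**
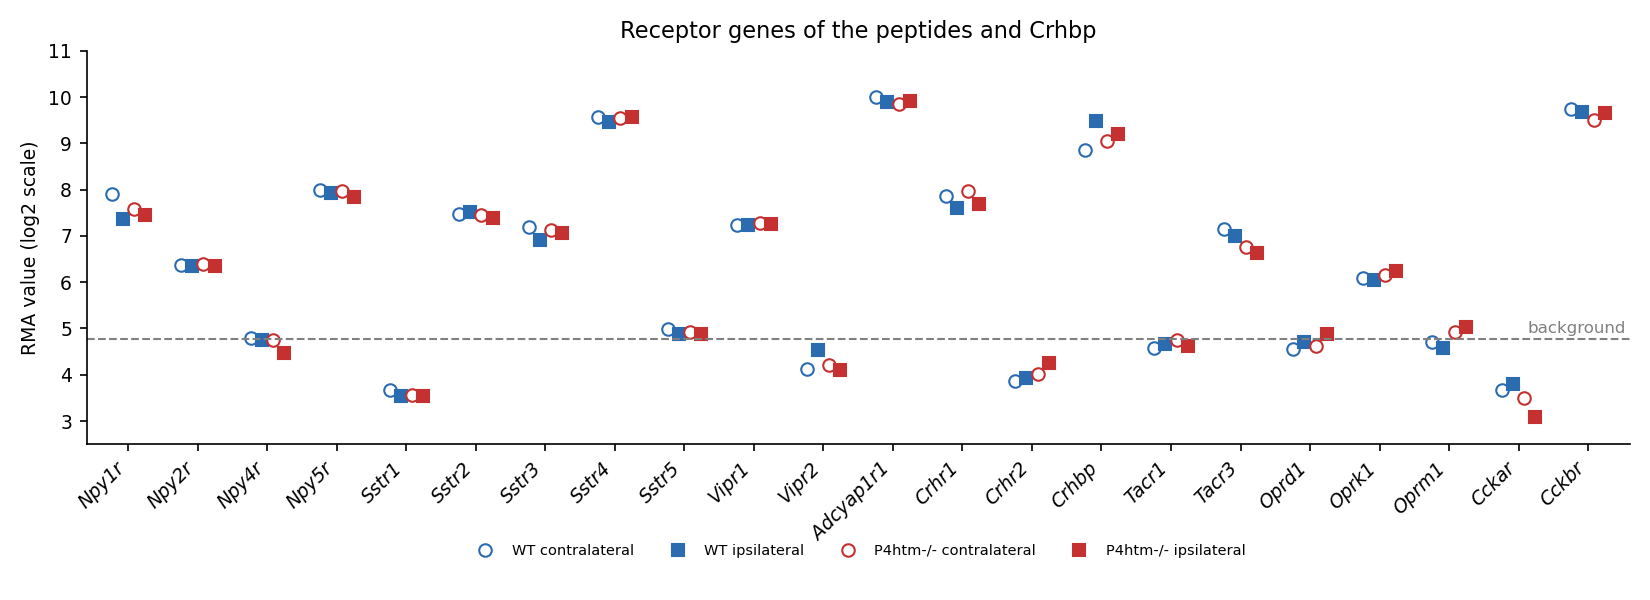
Levels of the 22 receptor and binding protein genes as RMA values on the log2 scale, 1 point per array, circles for contralateral and squares for ipsilateral cortex, blue for WT and red for P4htm-/- mice. Crhbp is the only gene whose sides are over 1.5-fold apart, at 8.85 and 9.48 in WT mice, and several genes near or under the dashed line at 4.78 carry no measured difference.

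Of 17 genes for peptide processing and dense-core vesicles 16 were measured, all above background. In WT mice 1 of them was lower on the ipsilateral side and 0 higher, and in the other 3 comparisons 0 passed 1.5-fold. The lower gene was Cadps2, which primes dense-core vesicles for release, with 10.82 in the WT contralateral, 10.20 in the WT ipsilateral, 10.82 in the P4htm-/- contralateral and 10.45 in the P4htm-/- ipsilateral cortex. Its side differences were -0.62 and -0.37. The carboxypeptidase gene Cpe, which trims the cut precursors, read 14.22, 13.98, 14.18 and 14.17, and the granin genes Chgb and Scg2 differed between the sides by -0.18 to 0.15. Chga, a granin gene named after its values were seen, differed by 0.30 in WT and 0.26 in P4htm-/- mice. The median of the list was -0.12 and -0.01 between the sides in WT and P4htm-/- mice, and -0.025 and 0.095 between the genotypes on the contralateral and ipsilateral side.

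Of 8 other peptide precursors of the cortex 7 were measured and 6 were above background, and 0 of them passed 1.5-fold in any comparison. Nts, the neurotensin precursor, read 8.71, 9.01, 8.76 and 8.47, and Cartpt, the CART precursor, read 8.05, 7.87, 8.06 and 7.52. In the ipsilateral cortex Nts and Cartpt differed by -0.54 and -0.35 between P4htm-/- and WT mice, and the median of the list was -0.25. Peptide genes of the hypothalamus were measured as markers of tissue beyond the cortex, and 7 of 8 were measured, all above background. Avp, the vasopressin precursor, read 7.92, 7.59, 9.34 and 8.03 and was higher in P4htm-/- than in WT contralateral cortex by 1.42. Oxt, the oxytocin precursor, read 7.86, 8.30, 8.51 and 7.96. Pmch, the precursor of melanin-concentrating hormone, read 6.39, 6.78, 5.64 and 7.40, and Gal, the galanin precursor, read 6.01, 6.72, 6.81 and 6.57. Between the sides Gal was higher in WT mice, and in P4htm-/- mice Pmch was higher and Avp lower. Between the genotypes 3 of the 7, Avp, Oxt and Gal, were higher and Pmch was lower in the contralateral cortex, and Pmch was higher in the ipsilateral cortex. The hypothalamus is also a site of Crh expression. On the P4htm-/- contralateral array, where Crh had its greatest value, 3 of the 7 (Avp, Oxt and Gal) were also at their greatest and Pmch at its lowest, while Trh, Pomc and Hcrt were greatest on other arrays. Their part in the values of Crh was not tested.

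Genes that neuronal activity and CREB induce were described for the same arrays, since CREB acts on several peptide genes. All 18 were measured and above background. Nptx2, a pentraxin that clusters glutamate receptors, was higher in the injured cortex of WT and of P4htm-/- mice, with 8.44 and 9.10 in WT and 8.45 and 9.50 in P4htm-/- mice on the contralateral and ipsilateral side. Egr2 was lower on the WT ipsilateral side, with 6.88, 6.18, 6.96 and 6.97 over the 4 arrays, and higher by 0.79 in P4htm-/- than in WT ipsilateral cortex, or by 0.62 with its other probe set. That probe set read 6.60, 5.99, 6.91 and 6.61. The P4htm-/- side difference of Egr2 was thus 0.01 with the first and -0.30 with the other. Arc, an immediate early gene of synapses, was also higher in P4htm-/- than in WT ipsilateral cortex, by 0.60. Over the list the median was -0.10 and 0.03 between the sides in WT and P4htm-/- mice, and 0.07 and 0.32 between the genotypes on the contralateral and ipsilateral side, where 15 genes lay above 0 and 2 below it. Of all genes above background 46.9% lay above 0 in that last comparison. Other neuronal lists described below were also mostly above 0 in it. The medians were 0.195 for pyramidal, 0.145 for all-neuron and 0.19 for striatal markers, with 13 of 14, 12 of 14 and 11 of 13 above 0. Interneuron markers had a median of 0.00. The shift is thus not particular to the activity genes. Between the genotypes in ipsilateral cortex Sst, with the full element in its window, differed by 0.08. Those with only the shorter core, Adcyap1 (brighter probe set), Cort, Vip, Tac1 and Cck, differed by 0.22, 0.10, 0.04, -0.03 and -0.07. The other probe set of Adcyap1 gave -0.11. Npy and Pdyn, whose windows hold neither, differed by 0.08 and 0.00, so these values do not separate genes with and without the motif. The part of CREB in these values was not tested.

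Markers of the cells that make the peptides were set beside these values. Of 25 interneuron markers 23 were measured, and their median difference was -0.07 between the sides in WT and -0.05 in P4htm-/- mice, and -0.04 and 0.00 between the genotypes on the contralateral and ipsilateral side. Gad1 and Gad2, which encode the enzymes that make GABA, read 12.30 to 12.43 and 10.87 to 11.11. Pvalb, the marker of fast-spiking cells, was named after its values were seen and read 10.14, 10.01, 10.04 and 9.69. The only interneuron marker past 1.5-fold was Lamp5, lower on the WT ipsilateral side, with 11.51, 10.92, 11.46 and 11.13. It marks neurogliaform cells and is also expressed by pyramidal neurons. Mean log2 levels over the list were 8.85, 8.79, 8.83 and 8.78, and 21 or 22 of 23 markers were above background on each array, so the tissue held interneuron transcripts on all 4 arrays. In such bulk RNA fewer cells of a type and less RNA per cell cannot be told apart.

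Markers of pyramidal neurons and of all neurons had lower values on the WT ipsilateral side. All 14 pyramidal markers measured were below 0 there, with a median of -0.17, and 12 of 14 markers of all neurons, with a median of -0.195. In P4htm-/- mice both medians were -0.015. The 13 markers of striatal projection neurons, which make Penk, Pdyn and Tac1 in abundance, were all above background on every array. Their medians were -0.24 between the sides in WT, with 13 of 13 below 0, and 0.00 in P4htm-/- mice, and their mean levels were 8.82, 8.57, 8.74 and 8.74 in the same order of arrays as above. Of these lists only Lamp5 passed 1.5-fold. The part of these shifts in the values of Penk, Pdyn and the other peptide genes was not tested. After the median difference of the neuron markers was subtracted from each comparison, 0 peptide genes passed 1.5-fold, and their median between the sides in WT mice moved from -0.095 to 0.10. The WT side differences of Sst, Cort, Penk and Pdyn then lay above 0, at 0.095, 0.085, 0.085 and 0.105, and those of Vip and Crh near 0, while the counts over all genes became 831 higher and 8 lower.

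Some other lists had large side differences on the same arrays. The occluded artery was always the left one, without sham-operated cortex on any array, so injury and hemisphere cannot be told apart. Of 10 markers of reactive astrocytes 9 were higher on the ipsilateral side in each genotype, and the median of the list was 1.89 in WT mice and 1.955 in P4htm-/- mice. Gfap, the astrocyte filament gene, read 8.07, 10.20, 8.14 and 9.97. Markers of the choroid plexus and ependyma also differed with side, with medians of 0.63 and 0.485, and Ttr, which encodes transthyretin, read 8.71, 14.06, 9.03 and 13.62. The 7 markers of blood cells and neutrophils had medians of 0.21 and 0.48, but only 3 of them were above background in each genotype. Over those above background the medians were 2.46 in WT and 1.57 in P4htm-/- mice. The genes differed: Alas2, S100a8 and S100a9 in WT, and S100a8, S100a9 and Ngp in P4htm-/- mice. Both medians are the difference of S100a9, which read 4.28, 6.74, 5.39 and 6.96, the first value being below background. In P4htm-/- minus WT ipsilateral cortex the median of the 7 markers was 0.22, with 5 above 0 and 2 below it. Markers of microglia had medians of 0.24 and 0.19, those of endothelium 0.24 and 0.19, and those of oligodendrocytes -0.10 and -0.085. Their part in the side differences of Vip, Crh and Cort was not tested.

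**Figure D4:**
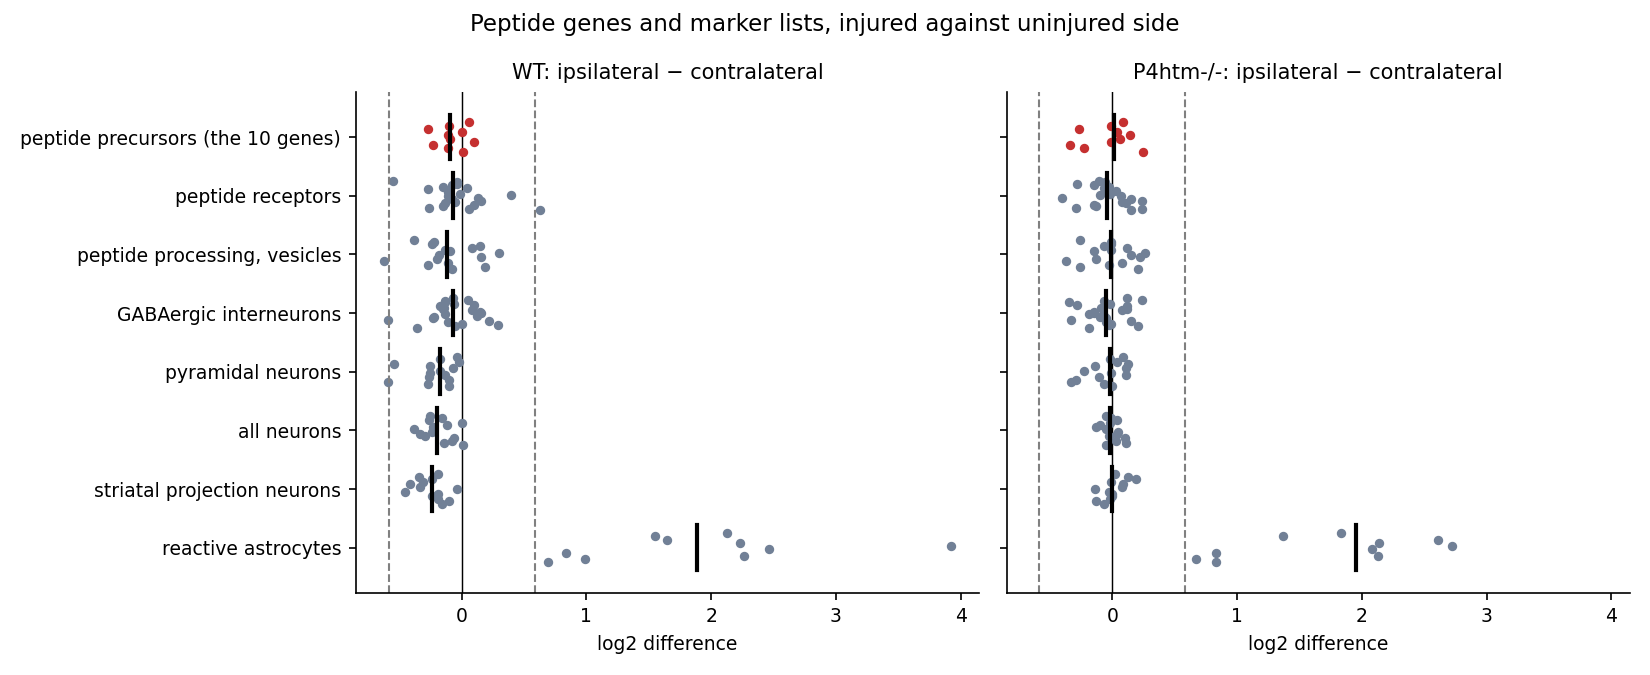
Log2 differences between ipsilateral and contralateral cortex in WT (left) and P4htm-/- mice (right), with 1 point per gene, black bars at list medians and dashed lines at 1.5-fold. The peptide genes, in red, lie between -0.34 and 0.25 while markers of reactive astrocytes have medians of 1.89 and 1.955. The pyramidal, all-neuron and striatal lists have medians of -0.17 to -0.24 in WT and of -0.015 to 0.00 in P4htm-/- mice. The interneuron list has medians of -0.07 in WT and -0.05 in P4htm-/- mice.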

How the data were processed

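Expression was measured in 4 pools of cortical RNA, 1 per condition. The authors quantified the hybridization with GeneChip Operating System, normalized them with GenePattern and deposited log2 values per probe set, with RMA named in the submitters' processing notes. Software versions were not given in the sources used here, nor was the base of the logarithm, which was taken as 2 from the range of 2.51 to 14.9. RMA forces a common distribution, so a shift shared by all genes of an array is removed. Array medians were 5.53 to 5.55, and 59.2% to 59.8% of probe sets lay above background. The precision is limited by the number of arrays.

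The table holds 45101 probe sets, and the platform annotation assigns 34958 of them to 1 gene, 932 to several and 9211 to none. For 34754 the symbol was looked up by Entrez ID in a RefSeq table of GRCm38.p6, used for names only. Where several probe sets named a gene, the one with the highest mean stood for it. Of 18194 genes 13448 were above background in at least 1 condition. Columns of the table that were left out numbered 0. Named genes are the 10 members, from each list those past 1.5-fold and up to 4 with the highest means, and P4htm, with exceptions stated where they occur. The members, lists and rules were chosen with earlier results of these data known. No test was run. Alternatives were the choice of probe sets, the background limit, a 2-fold limit, median centring, cyclic loess and subtraction of the neuron median. Counting steps were tested on simulated data. Python 3.11.15, numpy 2.4.6, pandas 2.3.3, matplotlib 3.10.9, R 4.3.3 and limma 3.58.1 were used.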

Additional observations from a re-analysis of the deposited data

Results flagged for a closer look

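For 6 peptide genes the difference between the sides, or that between the genotypes, had opposite signs in the groups compared, and none of these was tested since each condition is 1 array. The difference of the 2 side differences, P4htm-/- minus WT, was 0.25 for Penk, 0.15 for Pdyn, 0.09 for Sst, -0.11 for Tac1, -0.11 for Crh and 0.24 for Adcyap1. For Penk and Tac1 both the side and the genotype differences changed sign, for Pdyn the side difference, and for Sst, Crh and Adcyap1 the genotype difference. All 6 values are smaller than the standard deviation of 0.29 over the receptor probe sets. That is a guide to scatter at the low end of the scale only, so it does not tell whether these values are scatter. The dimmer probe set of Adcyap1 gave -0.24. No condition has 4 arrays, so single arrays could not be checked as outliers.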

How the results depend on the processing

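Under all 8 alternatives 0 peptide genes passed the limit in any comparison, in 64 of 64 alternative counts. Some of these counts could not have differed. The 2-fold and the stricter background limit can only remove genes, and dropping the filter adds none of the peptide genes. None of them is represented by a probe set with _x_ or _s_ in its suffix, so leaving those out changed no value. The mean of all probe sets could change only Tac1 and Adcyap1. Of 200 recomputed differences of single peptide genes, these unchanged ones included, 0 moved by more than the scatter of the receptor probe sets. That limit of 0.18 to 0.21 is wide against these differences. Signs turned nonetheless. Subtraction of the neuron median turned the WT side differences of Sst, Cort, Penk and Pdyn, brought those of Vip and Crh from -0.27 and -0.23 to -0.075 and -0.035, and turned the ipsilateral genotype differences of Npy, Sst, Vip, Cort and Penk to between -0.045 and -0.105. The mean of all probe sets and cyclic loess turned only differences of -0.01 or -0.02, those of Sst, Tac1 and Adcyap1. The median of the peptide genes ranged from -0.105 to 0.10 between the sides in WT mice, from 0.015 to 0.03 in P4htm-/- mice, and between the genotypes from -0.005 to 0.075 on the contralateral and from -0.09 to 0.055 on the ipsilateral side. Subtraction of the neuron median turned its sign in WT mice and between ipsilateral cortexes, and median centring turned it between contralateral cortexes. Ranked among genes of similar level, an alternative added after the data were seen, Penk moved from percentile 8.8 to 0.9 and Cort from 93.8 to 95.2 in the contralateral comparison of genotypes, crossing percentiles 5 and 95, which the 38 other values did not. Counts over all genes, given as higher and lower, changed more. They were 322 and 59 in WT, 204 and 22 in P4htm-/- mice, 30 and 21 between contralateral and 12 and 77 between ipsilateral cortexes. They became 189 and 31, 127 and 7, 13 and 2, and 7 and 41 with background at the 99th percentile, 6.59, and 107 and 2, 75 and 1, 4 and 2, and 0 and 5 at 2-fold. With the mean of all probe sets 35 genes were lower in WT, 11 lower in P4htm-/- mice and 16 higher between contralateral cortexes. With no filter 53 and 24 were higher in P4htm-/- contralateral and ipsilateral cortex. After subtraction of the neuron median, which shifted the median of all genes to 0.175 in WT and to -0.155 between ipsilateral cortexes, the counts were 831 and 8 in WT, 43 and 16 between contralateral and 3 and 371 between ipsilateral cortexes. No paired analysis was possible because each condition has 1 array of pooled RNA, and for the same reason no array could be left out. The cause of these shifts was not tested.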
